A study of Mus musculus with 12 samples.

Results

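The genes described here are 41 interferon-stimulated genes of the mouse, taken from a named list and followed across uterus and oviduct after estradiol (E2) or vehicle treatment in early pregnancy. Each gene was represented by the probe set that carried its symbol alone and had the highest mean over all arrays. Of the 41 listed genes, 36 had such a probe set, out of 19938 genes measured in this way. Another 4 (Oas1g, Isg15, Gbp2 and Igtp) were present only on probe sets shared with a second gene, and Ifi44 was not analysed here.

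The arrays were Affymetrix mouse gene arrays, 1 per RNA sample and 12 in all. Mice received an injection under the skin every day from day 0.5 to day 2.5 and were dissected on day 3.5, the preimplantation stage. The oil groups received 100 µl of sesame oil alone (0 µg/kg E2), and the E2 groups received 10 µg/kg E2 in the same volume. Uterus and oviduct from each treatment made 4 groups (oil or E2, uterus or oviduct), each with 3 samples that the labels call biological replicates. All animals were pregnant and injected, so no uninjected or nonpregnant tissue stands beside these groups. The labels used here give no strain, no statement on pooling and no statement on whether a mouse gave both tissues. The p-values therefore measure the spread between these samples.

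Interferons are secreted proteins that bind receptors on the cell surface and activate Janus kinases. In the type I and type III response a complex that contains STAT2 and IRF9 then binds a DNA sequence called the interferon-stimulated response element, or ISRE. The target genes encode sensors of foreign nucleic acid, enzymes and binding proteins that limit viruses, and regulators of the response itself. In the female reproductive tract the epithelium makes interferon epsilon without infection, and its amount follows the hormonal state.

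Values are log2 intensities and differences are log2 fold changes with the standard error (SE) of a limma fit across all arrays. A gene was said to rise or fall where the p-value, adjusted by the Benjamini-Hochberg method across the 19938 genes, was below 0.05. The tissue labels fitted the arrays, since the uterine markers (Hoxa10, Hoxa11, Hoxa13 and Hoxd10) averaged 8.19 to 8.77 in uterus and 6.16 to 6.37 in oviduct. Of these 4 markers 3 passed the test as lower in oviduct in each treatment, against 21.5% of all genes in oil and 18.9% in E2. The estimate nearest 0 was -0.16 in oil and -0.02 in E2, so not every marker separated the tissues. The 6 oviductal markers, among them Foxj1 and Pax8, averaged 8.97 to 9.58 in oviduct and 7.27 to 7.46 in uterus. The Y-linked genes, which female tissue lacks, reached 7.50 (Sry) or 5.36 without Sry. The mean of 14 of the 36 members lay below 7.50 in oil uterus, but only that of Ifi202b lay below 5.36. That of Mx1 was close to this level, at 5.42.

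Promoter stretches are shown for members that rose in the uterus and for members that did not, because the ISRE core occurred in both sets. RefSeq windows of assembly GRCm38.p6, from 250 bases before to 50 bases after the annotated start, were at hand for 32 of the 41 members. The ISRE core, searched as GAAA, any 2 bases and GAAA on both strands, was present in 21 of the 32 (65.6%), against 3.99% of 27018 genes with a window. The gamma-activated site TTCNNNGAA, which reads the same on both strands and can overlap the core by a few letters, was present in 9 of 32 (28.1%), against 9.55% of the genes. Of the members that rose in the uterus after E2, 11 had a window and 5 of these held the core. Of the measured members that did not pass the test, 16 had a window and 12 of these held the core. Dhx58, Zbp1, Oas2, Mx1, Mx2, Rtp4, Usp18, Parp9 and Parp14 had no window in the table. In the stretches below, printed 5′ to 3′ on the strand of the gene, capitals mark the core or its reverse complement. Oas1a, Oas3, Ifit3 and Bst2 passed the uterine test, and the rest did not.
Oas1a (chr5:120907526-120907565, minus strand): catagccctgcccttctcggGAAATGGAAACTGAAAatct
Oas3 (chr5:120777705-120777754, minus strand): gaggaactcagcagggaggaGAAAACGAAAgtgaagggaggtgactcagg
Ifit3 (chr19:34583353-34583436, plus strand): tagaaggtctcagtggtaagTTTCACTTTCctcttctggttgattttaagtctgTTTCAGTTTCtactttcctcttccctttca
Bst2 (chr8:71537567-71537622, minus strand): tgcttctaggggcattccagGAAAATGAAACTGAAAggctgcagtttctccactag
Ifit1 (chr19:34640765-34640833, plus strand): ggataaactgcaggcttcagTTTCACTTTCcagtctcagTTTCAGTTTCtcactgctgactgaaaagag
Gbp7 (chr3:142530263-142530312, plus strand): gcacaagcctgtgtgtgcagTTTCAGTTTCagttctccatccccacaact
Irgm1 (chr11:48871421-48871470, minus strand): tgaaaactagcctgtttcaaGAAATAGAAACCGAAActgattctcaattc
Trim30a (chr7:104465200-104465249, minus strand): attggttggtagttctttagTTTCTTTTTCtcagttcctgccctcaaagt
Trim30d (chr7:104507861-104507910, minus strand): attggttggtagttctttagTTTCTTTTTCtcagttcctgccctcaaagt
The Trim30a and Trim30d stretches have the same letters, and their windows were 93.6% identical over 295 bases. A second Trim30a window, at another annotated start, was 43.5% identical to that of Trim30d over 260 bases. Probe sequences were not compared, so signal shared between these neighbouring paralogs was not tested. A match is a description of the sequence and not a measured binding site.

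The third oil array of each tissue stood apart from the other oil arrays in these genes. Both these arrays and the members were chosen with earlier results of these data known. The counts below therefore describe the arrays and are not independent support that they stand apart. In oil uterus, replicate 3 lay below both other arrays in 34 of 36 members, against 31.1% of all genes, with a median displacement of -0.56. In oil oviduct, replicate 3 lay below both others in 32 of 36 members, against 38.3% of all genes, with a median displacement of -0.65. The mean over the 36 members was 7.75, 7.88 and 7.14 on the oil uterus arrays and 7.69, 7.84 and 6.93 on the oil oviduct arrays. The corresponding means were 8.35, 8.50 and 8.42 in E2 uterus and 7.47, 7.64 and 7.93 in E2 oviduct. The E2 uterus arrays thus lay above every other array, and the third oil arrays were the lowest in each tissue. The mean over all 19938 genes was 6.79 to 6.85 on every array. On the third oil arrays the 5 leukocyte markers (Ptprc, Cd52, Coro1a, Laptm5 and Cd53) were also lower, at 7.90 against 8.44 and 8.46 in uterus and 7.51 against 8.17 and 8.06 in oviduct. The 7 natural killer cell markers averaged 5.83 on the third oil uterus array against 6.81 and 6.99 on the others. The 6 genes listed as corpus luteum markers (Cyp11a1, Star, Akr1c18, Hsd3b1, Inhba and Fshr) averaged 8.25 on the third oil oviduct array against 5.51 and 5.04. The part of these markers in the member values was not tested. The uterine E2 difference of each measured member is therefore given with all arrays and again without the third oil arrays.

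**Figure D1:**
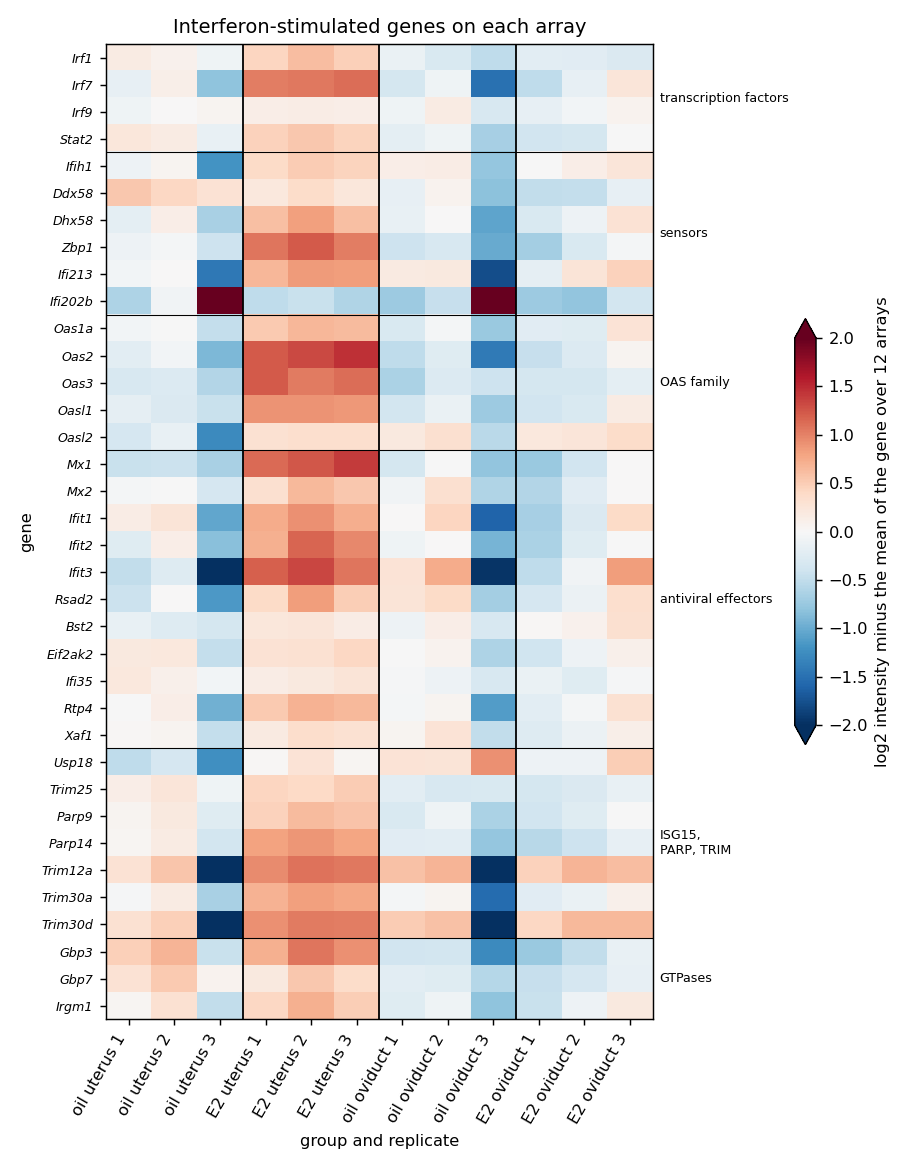
Log2 intensity of the 36 members (rows, grouped by role) on the 12 arrays (columns), minus the mean of each gene over the arrays, with the colour scale ending at 2 in either direction. The E2 uterus columns are the highest for most members, and the third oil column of each tissue is the lowest for most, with Ifi202b the reverse.

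E2 raised 19 of the 36 members in the uterus and lowered 0. An unadjusted p below 0.05 was reached by 26 members, against 7193 of all 19938 genes. Over all genes, 12.4% were called higher and 14.3% lower. The median difference was 0.86 for the members and -0.0007 for all genes, and 34 of 36 estimates were positive. All 3 E2 arrays lay above all 3 oil arrays in 32 of 36 members, against 19% of all genes, the exceptions being Ddx58, Ifi202b, Ifi35 and Gbp7. The rise was at least 2-fold in Irf7, Zbp1, Oas2, Oas3, Oasl1, Mx1, Ifit2, Ifit3 and Rsad2. Without the third oil arrays 25 members were called, the same 19 and also Ifih1, Ifi213, Rtp4, Trim12a, Trim30a and Trim30d, with 13.5% of all genes called higher. The median then was 0.56. Leaving out oil uterus replicate 3 alone, or E2 uterus replicate 2 alone, left 12 calls, with 11.2% and 9.79% of all genes called higher. The calls that held with any single array left out were Irf1, Irf7, Zbp1, Oas1a, Oas2, Oas3, Oasl1, Mx1, Ifit2, Bst2, Trim25 and Parp14.

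**Figure D2:**
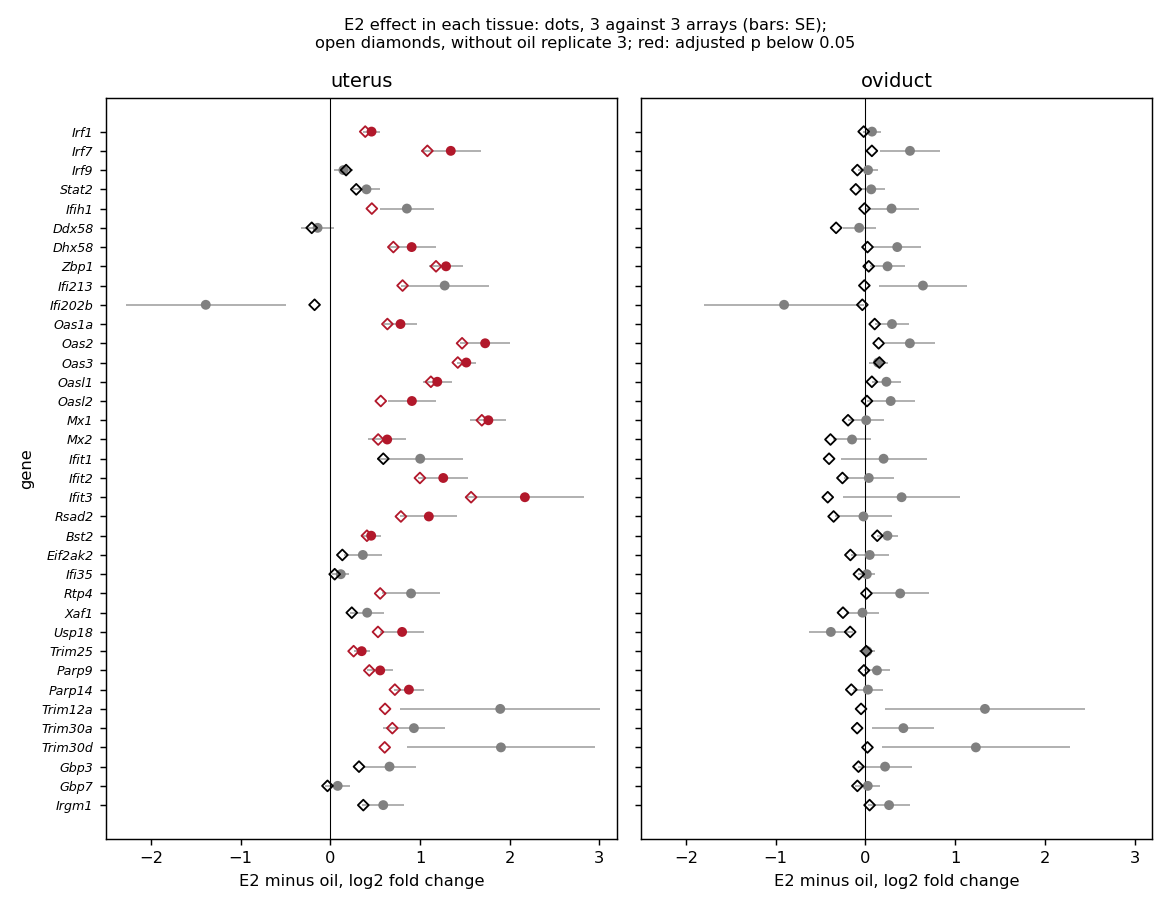
Log2 fold change of E2 over oil for the 36 members in uterus (left) and oviduct (right), with SE bars, and open diamonds for the fit without the third oil arrays; red marks an adjusted p below 0.05. The 19 red dots are all in the uterus panel and to the right of 0, and no member is red in the oviduct panel.

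Among the transcription factors, Irf7 and Irf1 rose in the uterus, and Irf9 and Stat2 did not pass the test. Irf7, which drives type I interferon genes, was at 7.93, 8.21 and 7.29 in oil uterus and at 9.11, 9.14 and 9.21 in E2 uterus. The E2 arrays were all above the oil arrays and lay close together. The difference was 1.34 (SE 0.33, adjusted p = 0.0102), a 2.54-fold rise, and 1.08 without the third oil arrays. Irf1, a factor that interferon gamma induces strongly, was at 8.04, 7.97 and 7.80 in oil and at 8.32, 8.50 and 8.37 in E2 uterus. Its groups did not overlap, and the difference was 0.46 (SE 0.10, adjusted p = 0.00413). A second Irf1 probe set of lower signal gave 0.04 (adjusted p = 0.81), so the 2 probe sets disagreed. Irf9, a DNA-binding partner of STAT2, was at 8.83, 8.92 and 8.96 in oil and at 9.04, 9.05 and 9.05 in E2 uterus. The groups did not overlap, yet the difference was 0.15 (SE 0.11, adjusted p = 0.384). Stat2 was at 8.52, 8.46 and 8.15 in oil and at 8.76, 8.84 and 8.74 in E2 uterus. This was 0.40 (SE 0.15, adjusted p = 0.0728), again with no overlap. Omitting the third oil arrays gave 0.39 for Irf1, 0.18 for Irf9 and 0.29 for Stat2, with Irf1 alone of the 3 called.

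The sensors were mixed, with Zbp1 and Dhx58 called among 6. Zbp1, a sensor of left-handed nucleic acid that can trigger cell death, was at 7.13, 7.19 and 6.83 in oil and at 8.30, 8.46 and 8.25 in E2 uterus. Every E2 array was more than 1 log2 unit above every oil array. The difference was 1.29 (SE 0.19, adjusted p = 0.000396). Dhx58, a regulator of the RIG-I-like receptors, was at 7.16, 7.49 and 6.71 in oil and at 7.96, 8.17 and 7.95 in E2 uterus. The groups did not overlap, and the difference was 0.91 (SE 0.27, adjusted p = 0.0256). Ddx58, which encodes the RNA sensor RIG-I itself, differed by -0.14 (SE 0.19, adjusted p = 0.666), with overlapping arrays. Ifih1, a sensor of long double-stranded RNA, differed by 0.85 (SE 0.30, adjusted p = 0.0564), and by 0.46 (adjusted p = 0.00286) without the third oil arrays. Ifi213 of the p200 family of DNA-binding proteins differed by 1.27 (SE 0.49, adjusted p = 0.0793), and by 0.81 (adjusted p = 0.0028) without them. The same omission gave 1.18 for Zbp1, 0.70 for Dhx58 and -0.21 for Ddx58.

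Ifi202b, also of the p200 family, ran against the other members on the third oil arrays. It was at 3.00, 3.55 and 6.91 in oil uterus and at 2.88, 3.15 and 5.63 in oil oviduct. The 6 E2 arrays lay between 2.82 and 3.24. Only the third oil array of each tissue exceeded the level of 5.36 that Y-linked genes other than Sry reached. Its E2 difference in uterus was -1.39 (SE 0.89, adjusted p = 0.31) and -0.18 without the third oil arrays.

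All 5 measured members of the oligoadenylate synthetase family rose in the uterus. These enzymes make the small messenger that activates RNase L, although the like-named Oasl1 is known as an inhibitor of Irf7 translation. Oas2 was at 8.18, 8.34 and 7.48 in oil and at 9.62, 9.71 and 9.84 in E2 uterus. The E2 arrays were all above the highest oil array by more than 1 log2 unit, and the difference was 1.73 (SE 0.28, adjusted p = 0.000803). Oas3 was at 5.99, 6.03 and 5.72 in oil and at 7.52, 7.34 and 7.43 in E2 uterus. Its groups did not overlap and its oil arrays were less spread than those of Oas2. The difference was 1.52 (SE 0.11, adjusted p = 1.73e-06), and it was 1.42 without the third oil arrays. Oasl1 differed by 1.19 (SE 0.16), Oasl2 by 0.91 (SE 0.27) and Oas1a by 0.78 (SE 0.19), with adjusted p of 0.000203, 0.0252 and 0.00911. The Oasl2 difference was 0.56 (adjusted p = 0.000653) without the third oil arrays, and those of Oas2, Oasl1 and Oas1a were 1.47, 1.12 and 0.64. The probe set that Oas1g shares with Oas1a averaged 7.42 in oil and 8.40 in E2 uterus, with no test made.

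Of 11 measured antiviral effectors, 6 rose in the uterus: Mx1, Mx2, Ifit2, Ifit3, Rsad2 and Bst2. Mx1, a nuclear GTPase that blocks influenza virus, was at 5.49, 5.50 and 5.28 in oil and at 7.05, 7.17 and 7.33 in E2 uterus. No other group came near the E2 uterus arrays, since both oviduct groups lay between 5.14 and 5.93. The oil uterus and oviduct values were near the level of 5.36 that Y-linked genes other than Sry reached. The size of the Mx1 differences is therefore uncertain. The difference was 1.76 (SE 0.20, adjusted p = 6.69e-05), a 3.39-fold rise. Ifit3, a member of the tetratricopeptide family that binds viral RNA complexes, was at 7.58, 7.80 and 5.89 in oil and at 9.25, 9.39 and 9.13 in E2 uterus. The third oil array was the lowest by far. Ifit3 had the largest estimate of any member, 2.17 (SE 0.66, adjusted p = 0.0286), and this was 1.57 (adjusted p = 0.00381) without the third oil arrays. Ifit2 differed by 1.26 (SE 0.28, adjusted p = 0.00555) and Rsad2, which makes a chain-terminating nucleotide, by 1.10 (SE 0.32, adjusted p = 0.0234). Mx2 differed by 0.63 (adjusted p = 0.0441) and Bst2, the tether that holds budding virions, by 0.46 (adjusted p = 0.011). With the third oil arrays left out, the differences were 1.69 for Mx1, 1.00 for Ifit2, 0.79 for Rsad2, 0.53 for Mx2 and 0.41 for Bst2, all still called.

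The other 5 effectors did not pass the test in uterus. Ifit1, whose protein binds RNA without a methylated cap, differed by 1.00 (SE 0.48, adjusted p = 0.159). Its oil uterus values of 8.06, 8.17 and 6.88 were spread by the third array, and E2 uterus was at 8.65, 8.82 and 8.64. Rtp4 differed by 0.90 (adjusted p = 0.0593), and by 0.56 (adjusted p = 0.0106) without the third oil arrays. Xaf1, an antagonist of an inhibitor of apoptosis, differed by 0.41 (adjusted p = 0.141). Eif2ak2, the kinase PKR that stops translation, differed by 0.36 (adjusted p = 0.258) and Ifi35 by 0.12 (adjusted p = 0.452). All 5 estimates shrank by more than 1.5 times when the third oil arrays were left out. Those of Ifit1, Xaf1, Eif2ak2 and Ifi35 became 0.59, 0.24, 0.13 and 0.05.

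Among the genes of ISG15 conjugation, ADP-ribosylation and the TRIM family, Parp14, Usp18, Parp9 and Trim25 rose in the uterus. Parp14, a mono-ADP-ribosyltransferase, was at 8.45, 8.58 and 8.05 in oil and at 9.22, 9.30 and 9.19 in E2 uterus. The groups did not overlap, and the difference was 0.88 (SE 0.17, adjusted p = 0.0023). Usp18, which removes ISG15 from proteins and damps signalling at the type I receptor, was at 8.15, 8.32 and 7.43 in oil and at 8.67, 8.92 and 8.69 in E2 uterus. It differed by 0.80 (SE 0.25, adjusted p = 0.0307), and by 0.53 (adjusted p = 0.035) without the third oil arrays. Parp9, the partner of an E3 ligase in the interferon response, differed by 0.56 (adjusted p = 0.0152). Trim25, an E3 ligase that acts on RIG-I, differed by 0.35 (adjusted p = 0.0123). Omitting the third oil arrays gave 0.72 for Parp14, 0.43 for Parp9 and 0.26 for Trim25, all still called. The probe set of Isg15, the ubiquitin-like modifier itself, is shared with Gm9706 and averaged 5.45 in oil and 5.63 in E2 uterus, with no test made. Over the 12 arrays it ran from 5.25 to 5.81, near the level of 5.36 that Y-linked genes other than Sry reached.

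Trim12a, Trim30a and Trim30d had their largest contrasts within the oil groups. Trim30d was at 7.89, 8.07 and 4.09 in oil uterus and at 8.51, 8.63 and 8.62 in E2 uterus. Trim12a was at 8.29, 8.56 and 4.57 in oil uterus and at 8.95, 9.09 and 9.05 in E2 uterus. The third oil array was more than 3 log2 units below the others for both genes. With it, the E2 difference was 1.90 (SE 1.05, adjusted p = 0.227) for Trim30d and 1.89 (SE 1.12, adjusted p = 0.262) for Trim12a. Without the third oil arrays both differences were 0.61, with adjusted p of 0.000749 and 0.00111. Trim30a, which damps NF-kappaB signalling, differed by 0.93 (adjusted p = 0.0698), and by 0.69 (adjusted p = 0.00063) without those arrays.

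None of the 3 measured GTPases of the guanylate-binding and immunity-related families passed the test in uterus. An unadjusted p below 0.05 was reached by 2 of them, against 7193 of all 19938 genes. These proteins attack the vacuoles of intracellular pathogens. Irgm1 was at 8.84, 9.11 and 8.31 in oil and at 9.22, 9.52 and 9.29 in E2 uterus. Its groups did not overlap, and it differed by 0.59 (SE 0.23, adjusted p = 0.0847). Gbp7 was at 8.68, 8.91 and 8.46 in oil and at 8.60, 8.93 and 8.77 in E2 uterus. Its groups overlapped, and it differed by 0.08 (SE 0.14, adjusted p = 0.752). Gbp3 differed by 0.66 (SE 0.30, adjusted p = 0.134). Without the third oil arrays, Irgm1, Gbp7 and Gbp3 differed by 0.37, -0.03 and 0.32, and 0 of the 3 passed. The shared probe set of Gbp2 and Gbp2b averaged 8.53 in oil and 9.21 in E2 uterus, and that of Igtp and Irgm2 averaged 8.30 and 8.66.

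**Figure D3:**
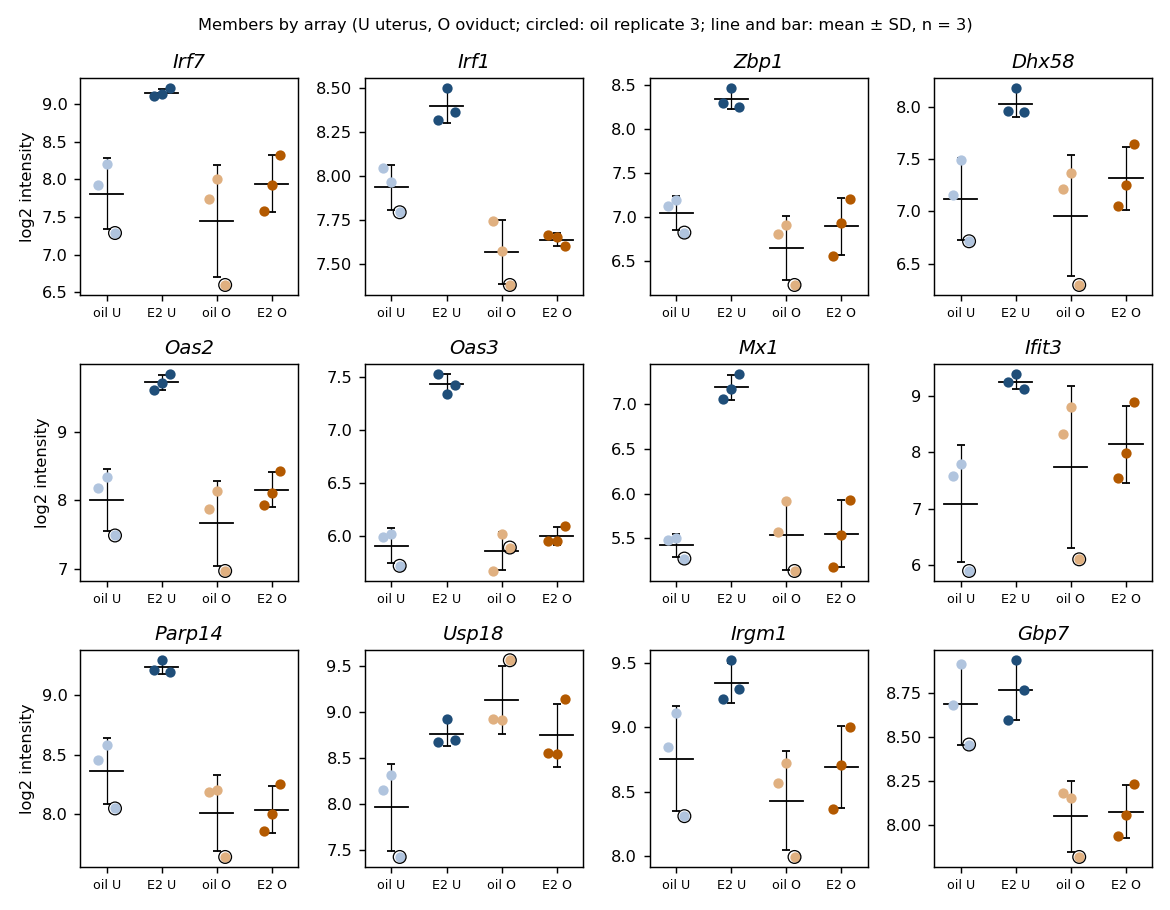
Log2 intensity of 12 members on each array in the 4 groups, with a line at the group mean and bars of 1 SD (n = 3), and the third oil array of each tissue circled. E2 uterus lies above oil uterus without overlap in every panel but that of Gbp7, whereas the oviduct groups overlap in all 12.

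Markers of several cell types also moved in the uterus. The 5 leukocyte markers averaged 8.44, 8.46 and 7.90 in oil and 8.96, 8.94 and 8.98 in E2 uterus, and 4 of 5 rose. Of 9 macrophage markers 7 rose (median 0.70), with list means of 8.18 to 8.45 in oil and 9.00 to 9.13 in E2 uterus. All 9 epithelial markers, among them Epcam and Krt8, rose (median 1.10), from means of 8.34 to 8.59 to means of 9.61 to 9.82. All 6 endothelial markers fell (median -0.63). Among the lymphoid lists, 1 of 5 T cell, 0 of 4 B cell and 0 of 7 natural killer cell markers were called higher. Of the remaining lists, 2 of 7 dendritic cell, 3 of 6 neutrophil and 3 of 7 smooth muscle markers were higher and 3 of 8 stromal markers were lower. Of all genes, 12.4% were higher and 14.3% lower. Without the third oil arrays 5 leukocyte, 8 macrophage, 8 epithelial, 1 dendritic cell, 3 neutrophil and 6 smooth muscle markers were higher. For T, B and natural killer cells 1, 0 and 1 were then higher. Then 4 stromal, 6 endothelial and 1 natural killer cell markers were lower, with 13.5% of all genes higher and 14.5% lower. In the oviduct 0 leukocyte and 0 macrophage markers were called, yet all estimates were positive. Their medians were 0.42 and 0.53, and 0.28 and 0.36 without the third oil arrays. An unadjusted p below 0.05 was reached by 3 of 5 and 8 of 9, against 0 of 36 members and 2094 of all 19938 genes. Of the 9 epithelial markers 7 were negative there, and 1 was called lower. In whole tissue, more cells of a type and more RNA per cell cannot be told apart, and the part of these markers in the member values was not tested.

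In the oviduct, E2 changed 0 of the 36 members, and 0 had an unadjusted p below 0.05, against 2094 of all 19938 genes. Over all genes 0.16% were called higher and 0.13% lower, 0.291% in either direction. The E2 and oil arrays overlapped in every member, against 8.31% of all genes with all E2 arrays above the oil arrays and 9.07% with all below. The median difference was 0.17, and it was -0.04 without the third oil arrays, with 30 and then 13 of 36 estimates positive. The count of calls was 0 as well without the third oil arrays, with array weights and with the oviduct arrays fitted alone. Irf7 was at 7.74, 8.01 and 6.60 in oil oviduct and at 7.58, 7.93 and 8.33 in E2 oviduct, a difference of 0.50 (SE 0.33) that was 0.07 without the third oil arrays. Oas2 was at 7.88, 8.14 and 6.96 in oil and at 7.93, 8.11 and 8.43 in E2 oviduct, a difference of 0.50 (SE 0.28) that was 0.15 without them. In both genes the third oil array was the lowest of the 6. Mx1 was at 5.58, 5.91 and 5.14 in oil and at 5.18, 5.54 and 5.93 in E2 oviduct, and differed by 0.01 (SE 0.20), or by -0.19 without the third oil arrays. The sizes that this leaves possible differ by gene, since the SE ran from 0.09 for Trim25 to 1.12 for Trim12a.

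The E2 oviduct arrays also differed from each other. Replicate 3 lay above both others in 34 of 36 members, against 30.2% of all genes, and replicate 1 lay below both others in 31 of 36, against 29.4%. Ifit3, the widest, ran from 7.55 on replicate 1 to 8.90 on replicate 3. The leukocyte markers were at 8.48, 8.27 and 8.21 on the same arrays, the opposite order. The cause of the spread between these arrays was not tested. The median SD of the members was 0.24 in E2 oviduct, 0.43 in oil oviduct, 0.39 in oil uterus and 0.09 in E2 uterus. The E2 uterus arrays thus had the narrowest spread of the 4 groups.

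The difference between the tissues in their response to E2 was tested directly. The response was smaller in oviduct than in uterus for 6 of 36 members and larger for 0, against 5.71% and 5.77% of all genes. The 6 were Mx1 (-1.75, SE 0.28, adjusted p = 0.00227), Oas3 (-1.38, SE 0.15, adjusted p = 0.00015), Usp18 (-1.19, SE 0.35, adjusted p = 0.0479), Zbp1 (-1.04, SE 0.27, adjusted p = 0.0276), Oasl1 (-0.96, SE 0.23, adjusted p = 0.0177) and Parp14 (-0.85, SE 0.24, adjusted p = 0.0405). In Usp18 the oviduct estimate was negative, -0.39, with oil oviduct at 8.92, 8.91 and 9.56 and E2 oviduct at 8.56, 8.54 and 9.14. There the third oil array was the highest of its group, unlike in uterus. In Mx1, Oas3, Zbp1, Oasl1 and Parp14 the oviduct estimates lay between 0.01 and 0.25. Outside E2 uterus, Mx1 was near the level of 5.36 that Y-linked genes other than Sry reached. The median over the 36 members was -0.56. Omitting the third oil arrays gave -1.88 for Mx1, -1.27 for Oas3, -1.14 for Zbp1, -1.05 for Oasl1 and -0.88 for Parp14.

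This comparison rested on single arrays more than the uterine one. The calls of Oas3, Oasl1 and Mx1 held with any 1 of the 12 arrays left out. Without oil uterus replicate 3, E2 uterus replicate 1 or 2, oil oviduct replicate 1 or 2, or E2 oviduct replicate 1 or 2, each left out alone, 3 members were called, with 4.37% to 5.77% of all genes. Without oil oviduct replicate 3, 13 were called, with 6.49% of all genes. Without the third oil array of both tissues 18 were called, with 7.22% of all genes lower. Usp18 was then lost (-0.70, adjusted p = 0.0759), and 13 were added, among them Irf7 (-1.01, adjusted p = 0.0276), Oas2 (-1.32, adjusted p = 0.00195) and Ifit3 (-1.99, adjusted p = 0.0139).

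Between the tissues of oil mice, 1 member was higher in oviduct and 5 were lower, against 17.3% and 21.5% of all genes. Usp18 was higher by 1.17 (SE 0.25, adjusted p = 0.00243), and by 0.68 (adjusted p = 0.0128) without the third oil arrays. Gbp3 was lower, with a difference of -0.91 (SE 0.30, adjusted p = 0.0301), with 7.56, 7.59 and 6.68 in oviduct and 8.43, 8.63 and 7.51 in uterus. Ddx58 was lower, with a difference of -0.72 (SE 0.19, adjusted p = 0.00855), with 9.16, 9.40 and 8.51 against 9.87, 9.75 and 9.61. Gbp7 was lower, with a difference of -0.63 (SE 0.14, adjusted p = 0.00316). Trim25 and Irf1 differed by -0.38 and -0.37. Omitting the third oil arrays gave -0.95 for Gbp3, -0.53 for Ddx58, -0.63 for Gbp7, -0.45 for Trim25 and -0.35 for Irf1. The Gbp3 arrays overlapped, since the lowest uterine value was below the highest oviductal ones, while those of Ddx58 and Gbp7 did not overlap. Leaving out oil uterus replicate 3 alone gave 9 lower members (19.3% of all genes). Leaving out oil oviduct replicate 3 alone gave 4 higher ones (17.1% of all genes), and leaving out oil uterus replicate 2 gave 2 (15.4%). Without the third array of both tissues 2 members were higher and 6 lower, with 17.4% and 19.3% of all genes.

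In E2 mice, 19 of 36 members were lower in oviduct than in uterus and 0 were higher, against 18.9% and 15.2% of all genes. All 36 estimates were negative, with a median of -0.70. The largest were Mx1 (-1.63), Oas2 (-1.57), Zbp1 (-1.44), Oas3 (-1.42) and Gbp3 (-1.35). The arrays of the tissues did not overlap in 32 members, against 28.7% of all genes, and the exceptions were Ifi202b, Oasl2, Bst2 and Usp18. Without the third oil arrays, which enter this contrast only through the shared spread, 31 were called lower, with 22.1% of all genes. Of the 4 group means, that of E2 uterus was the highest in 33 of 36 members, all but Ddx58, Ifi202b and Usp18.

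The rest of the interferon pathway was followed with 92 further genes, 80 of them measured. In the uterus 35 rose and 6 fell, against 12.4% and 14.3% of all genes, with a median of 0.30. In the oviduct 0 passed the test, with 0.291% of all genes called. There 12 of the 80 had an unadjusted p below 0.05, against 2094 of all 19938 genes. Leaving the third oil arrays out gave 37 that rose and 5 that fell in uterus, and 1 that fell in oviduct, the kinase gene Jak2 (-0.55, adjusted p = 0.0155). Of 8 ligands only Ifne, interferon epsilon, rose. It was at 5.99, 5.74 and 6.14 in oil uterus and at 7.26, 6.93 and 7.33 in E2 uterus, a difference of 1.22 (SE 0.16, adjusted p = 0.000146). In oviduct it was at 6.34, 6.59 and 6.16 in oil and at 6.73, 6.64 and 7.08 in E2, a difference of 0.45 (SE 0.16, adjusted p = 0.321). Its arrays did not overlap in either tissue. The third oil uterus array was the highest of its group for Ifne, unlike for the members. The response differed between the tissues by -0.76 (adjusted p = 0.0449). Ifnb1 differed by -0.10 and Ifng by 0.17 in uterus (adjusted p = 0.699 and 0.151).

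**Figure D4:**
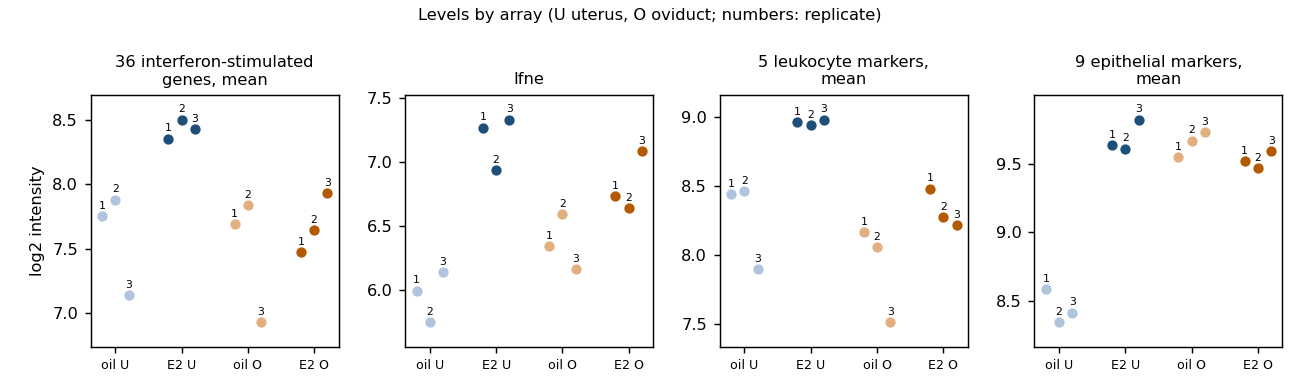
Log2 intensity on each array, in the 4 groups, of the mean over the 36 members, of Ifne, and of the means over 5 leukocyte and 9 epithelial markers; the digits are replicate numbers. The third oil array of each tissue is the lowest of its group for the members and the leukocyte markers, while the third oil uterus array is the highest of its group for Ifne; each panel has its own scale.

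The type I receptor chains did not pass the test in uterus, with Ifnar1 at -0.07 (adjusted p = 0.515) and Ifnar2 at 0.10 (adjusted p = 0.308). Of 6 receptor chains 4 rose: Il10rb, shared with the interferon lambda receptor, by 0.59, Ifngr2 by 0.46, Ifngr1 by 0.39 and Ifnlr1 by 0.25. Among the kinases Jak1 fell by 0.42, while Tyk2 and Jak2 each rose by 0.30. Ifnlr1 and Tyk2 missed the threshold without the third oil arrays (adjusted p = 0.0617 and 0.0522). Of 8 upstream sensors and adaptors Tlr7 (1.01), Tlr9 (0.62) and Ikbke (0.58) rose, and Myd88, the adaptor of Tlr7 and Tlr9, fell by 1.37. Other interferon regulatory factors called were Irf5 (0.57), Irf4 (0.46), Irf8 (0.36) and Irf2 (0.31), with Irf3 at -0.06 (adjusted p = 0.63). Of the negative regulators Ptpn6 rose by 0.29, and Socs1, Ptpn2 and Pias1 fell by 0.28, 0.28 and 0.20, with Ptpn2 missing the threshold without those arrays (adjusted p = 0.0597). Of 44 further interferon targets 20 rose, led by Epsti1 (1.67), Ddx60 (1.25) and Ifi27l2a (0.97), and only Isg20, an RNA exonuclease, fell, by 0.80. Tmem173 and Mb21d1 were not analysed here.

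Neighbouring genes of the TRIM and p200 clusters, chosen after the values of the members were seen, were set beside the displaced members on the third oil arrays. In the TRIM cluster Trim12a was displaced by -3.85 in uterus and -4.14 in oviduct, Trim30d by -3.89 and -3.63, and Trim30a by -0.72 and -1.55. Their measured neighbours Trim6, Trim34a and Trim12c lay between -0.12 and 0.38. Genes of the same cluster therefore differed by more than 3 log2 units in their displacement. In the p200 cluster Ifi202b was displaced by 3.64 and 2.62, and Ifi213 by -1.41 and -1.96. Ifi209, Ifi208, Ifi207 and Ifi203, which lie between them, and Ifi206, which lies outside them, were all lower on the third oil arrays. Their displacements ran from -0.97 to -0.35 in uterus and from -1.74 to -1.02 in oviduct. Ifi214 and Ifi205, the protein-coding genes directly outside Ifi213 and Ifi202b, and Aim2 lay between -0.79 and 0.37. The displacement beyond 1 log2 unit in both tissues was found in 7 members: Ifi213, Ifi202b, Ifit1, Ifit3, Rtp4, Trim12a and Trim30d. The cause of these displacements was not tested.

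**Figure D5:**
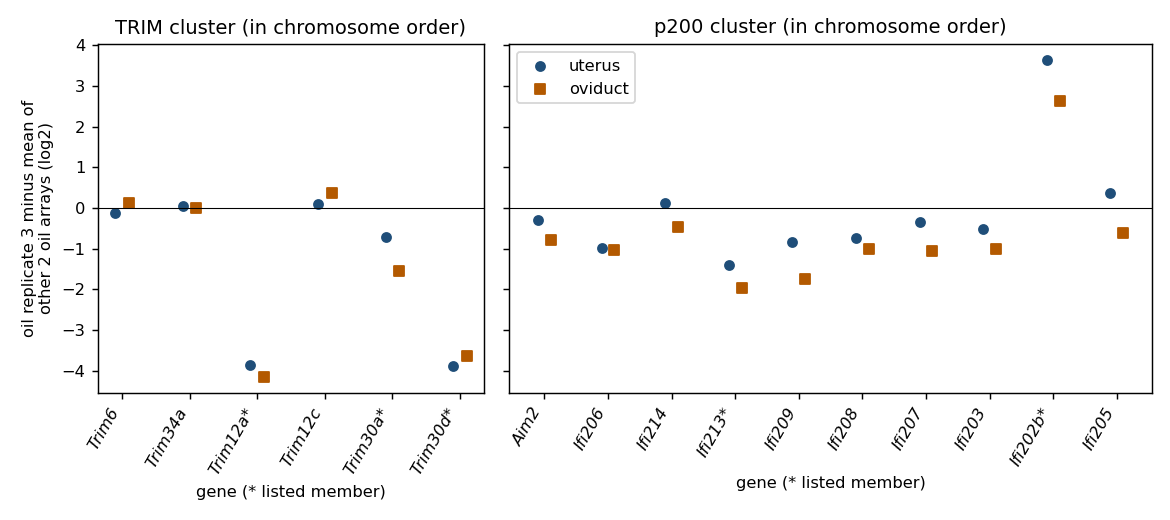
Log2 intensity of the third oil array minus the mean of the other 2 oil arrays, in uterus (circles) and oviduct (squares), for measured genes of the TRIM cluster (left) and the p200 cluster (right) in chromosome order, with members starred. Trim12a and Trim30d lie below -3 and Ifi202b above 2 in both tissues, while Trim6, Trim34a and Trim12c lie near 0.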

How the data were processed

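RNA of 12 samples was measured on Affymetrix mouse gene arrays. The deposited table holds intensities on a linear scale, made by the authors with RMA, as the submitters' processing notes name it. No version or other step is given in the sources used here. Intensities were log2 transformed. Of 35556 probe sets, 21789 had 1 symbol, 1621 had several and 12146 had none listed, and 21698 identifiers matched GRCm38.p6 names. A gene was represented by its single-symbol probe set of highest mean, with no intensity filter, which gave 19938 genes. A single limma model (version 3.58.1, under R 4.3.3) with a mean for each of the 4 groups gave two-sided moderated tests by eBayes, and p-values were adjusted by the Benjamini-Hochberg method with a threshold of 0.05. The number of arrays limits precision, and exact tests of 3 against 3 cannot go below p = 0.10. The members, the pathway and marker lists and the third oil arrays were chosen with earlier results of these data known. Within each role, the 2 called members with the largest uterine difference are given by array, or the 2 with the highest mean where none was called. To these were added Trim30d, Ifi202b, Irf7, Irf9, Stat2, up to 6 members called between tissue responses, up to 3 of each direction between oil tissues, and Ifne, Ifnar1, Ifnar2 and up to 3 called pathway genes per role. Others were named to account for every member. Promoter motifs were counted with Python 3.11.15. Alternatives were other normalizations, intensity filters, probe set choices, variance models, array weights, a fold test, a replicate block and arrays left out.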

Additional observations from a re-analysis of the deposited data

Results flagged for a closer look

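The response to E2 differed between uterus and oviduct, by the interaction contrast of limma, in 6 members. The oviduct minus uterus difference was -1.75 for Mx1, -1.38 for Oas3, -1.19 for Usp18, -1.04 for Zbp1, -0.96 for Oasl1 and -0.85 for Parp14. Over all genes 5.71% were called in this direction. With each array left out in turn, the calls of Mx1, Oas3 and Oasl1 held, while those of Usp18, Zbp1 and Parp14 were lost for 10, 7 and 9 of the 12 arrays. No formal test of single outlying samples was made in these groups of 3.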

How the results depend on the processing

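No called difference of a member reversed its sign under any alternative run. Of 19 members called higher in uterus, a test against a 1.2-fold change left 8 (4.49% of all genes), and array weights gave 28 (20.2%). Leaving out 1 array in turn gave 12 to 26, with 9.79% to 13.8% of all genes. Of 6 members with a smaller response in oviduct, that fold test left 2 (2.09% of all genes), and array weights gave 11 (11.8%). Omitting the third oil array of both tissues gave 18 (7.22%), and leaving out 1 array gave 3 to 13 (4.22% to 6.49%). In oil mice the 1 member higher in oviduct became 2 with array weights (20% of all genes) and 2 without the third oil arrays (17.4%). With 1 array left out it became 1 to 4 (15.2% to 17.3%). The 5 lower members became 0 in the fold test (8.15% of all genes) and 4 to 9 with 1 array left out (18.7% to 21.4%). In E2 mice the 19 lower members became 31 without the third oil arrays (22.1% of all genes). With 1 array left out they became 14 to 22 (14.5% to 20.3%). The oviduct response gave 0 calls throughout. The cause of these changes was not tested. The replicate numbers were not treated as pairing the samples. Correlations of same-numbered deviations ran from -0.22 to 0.26, and some were at or below 0.1 in every pair of groups. Only uterus and oviduct of the same treatment could share a mouse. There the correlations ran from 0.0045 to 0.26 in oil and from 0.026 to 0.26 in E2. Between different numbers of those groups they reached 0.26 in oil and 0.24 in E2. These values cannot settle whether a number pairs the tissues. The third oil arrays were also displaced downwards together in both tissues in 32 members, and the labels do not say whether they come from the same mice. With the replicate number as a fixed block 19, 0 and 5 members were called in uterus, oviduct and the difference between them. Of all genes, 12.4% were then higher in uterus and 5.59% lower in the difference. With treatment and number as a random block 21, 0 and 8 members were called, with 12.5% and 6.61% of all genes. Members of low signal, near the level of Y-linked genes, such as Mx1 outside E2 uterus, have uncertain fold changes.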
